A study of Homo sapiens with 8 samples.

Results

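The genes described here are the subunits of the proteasome, including the immunoproteasome, as measured by ribosome profiling in cells with and without METTL5. They were taken by name from the translation efficiency (TE) table: every gene whose symbol begins with PSMA, PSMB, PSMC, PSMD or PSME followed by a number. This rule found 40 of the 11244 genes of that table. One of them, PSMC3IP, shares the start of its name with the PSMC3 subunit but is a recombination cofactor and no subunit, which leaves 39. The members were grouped by role into 13 constitutive subunits of the core (6 alpha, 7 beta), 16 subunits of the regulatory cap (5 ATPases, 11 others), 5 interferon-inducible subunits (PSMB8, PSMB9, PSMB10, PSME1, PSME2) and 6 others.

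The proteasome degrades proteins tagged with ubiquitin. Its core is a barrel of stacked rings of alpha and beta subunits, with the proteolytic sites inside the beta rings, and its cap recognizes ubiquitin, unfolds the substrate with a ring of ATPases and feeds it into the barrel. Interferon induces 3 replacement beta subunits, PSMB8, PSMB9 and PSMB10, which take the places of PSMB5, PSMB6 and PSMB7 in newly built cores to give the immunoproteasome, and it also induces PSME1 and PSME2, which form an alternative activator ring. The immunoproteasome is known for making peptides that are shown on MHC class I molecules.

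METTL5 is the methyltransferase that places N6-methyladenosine on the RNA of the small ribosomal subunit. The libraries came from a cell line labelled HepG2, an established human liver cancer line, either wild type for METTL5 (METTL5-WT) or with METTL5 exons excised by CRISPR-Cas9 (METTL5-KO). All plates of both genotypes received 100 µg/mL cycloheximide, which halts ribosomes on the message, for 7 min. A fraction of every lysate served as input RNA, and micrococcal nuclease digestion of the remainder left ribosome-protected fragments (RPF). There were 8 libraries, 2 for each genotype and library type. The study describes its METTL5-WT and METTL5-KO HepG2 cells as each grown from a single clone. It does not say whether all replicates came from that clone, so genotype and clone cannot be told apart. The p-values measure only the spread between these libraries.

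The input libraries held 10710226 to 15307257 counts, and the RPF libraries held 3970779 and 4592443 reads over the genes of the TE table in METTL5-WT against 8626705 and 9255921 reads in METTL5-KO. METTL5 itself had 490 and 542 input counts in METTL5-WT, against 208 and 151 in METTL5-KO, and 158 and 226 RPF reads in METTL5-WT against 41 and 21 in METTL5-KO, so the knockout libraries were low in the targeted gene as labelled. The labelled cell type was not borne out by its markers. The 7 hepatocyte markers examined summed to 4 and 2 input counts in METTL5-WT, against 5 and 12 in METTL5-KO. TTR, SERPINA1 and FGB were at 0 in all 4 input libraries. ALB, the gene of serum albumin, had 0 counts in both METTL5-WT input libraries and 0 and 1 in METTL5-KO. AFP, another of the 7, had 0 counts in both METTL5-WT input libraries, against 5 and 9 in METTL5-KO. The 2 fibroblast markers, the collagen genes COL1A1 and COL3A1, summed to 3746 and 3526 input counts in METTL5-WT, against 3202 and 4128 in METTL5-KO. The cells are therefore named below by genotype alone. The collagen sum hides opposite changes. In METTL5-KO against METTL5-WT, the input log2 fold change was 0.44 ± 0.14 for COL1A1 (edgeR adjusted p = 0.0225). For COL3A1 it was -0.51 ± 0.11 (edgeR adjusted p = 0.00192). The 6 leukocyte markers summed to 4 and 0 input counts in METTL5-WT, against 11 and 10 in METTL5-KO, with CD3E at 0 in every input library. Most of the METTL5-KO counts came from CD14, at 0 and 0 in METTL5-WT against 11 and 8 in METTL5-KO. The 2 endothelial markers summed to 1 to 7 input counts per library.

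Values below are reads divided by a size factor for each library, as deposited, and are called levels; for an RPF level per codon, the level was divided by the number of coding codons of the gene. Levels of different genes are compared only per codon. A log2 fold change is METTL5-KO minus METTL5-WT, given with its standard error. Input was tested with edgeR on the counts, and a change was called at an adjusted p under 0.05. For RPF, and for TE, the RPF change beyond the input change, limma on log2(level + 1) and edgeR on the reads both had to pass 0.05 in the same direction.

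Of the 5 interferon-inducible subunits, 4 were higher in METTL5-KO in both input and RPF. PSMB8 and PSMB9, the replacement catalytic subunits encoded side by side in the MHC region, were more than 8 times as high in input and in RPF, and the activator subunits PSME1 and PSME2 were also higher in both. PSMB10, the remaining replacement subunit, did not pass the test in either. None of the 5 passed the test for TE, where 2.65% of all genes tested were called higher and 2.06% lower. With 5 genes, 0 called is near those shares and is no result about them.

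PSMB8 (ENSG00000204264, chromosome 6 from 32840717 to 32844679, hg38, minus strand) had input levels of 40.9 and 29.1 in METTL5-WT, against 555.8 and 558.3 in METTL5-KO. Its RPF levels were 87.9 and 102 in METTL5-WT, against 2110 and 2194 in METTL5-KO. Both knockout libraries lay far above both wild-type libraries in each library type. The input log2 fold change was 3.97 ± 0.18 (edgeR adjusted p = 4.82e-14), and the RPF log2 fold change was 4.49 ± 0.18 (limma adjusted p = 1.44e-11). The TE change was 0.52 ± 0.26 on the log2 scale and did not pass (limma adjusted p = 0.241).

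PSMB9 (ENSG00000240065, chromosome 6 from 32844136 to 32859851, plus strand) had input levels of 11.6 and 7.82 in METTL5-WT, against 91.0 and 120.0 in METTL5-KO. The RPF levels were 40.4 and 26.1 in METTL5-WT, against 309.9 and 288.8 in METTL5-KO. The genotypes did not overlap. The wild-type RPF levels rest on 17 and 13 reads. The log2 fold change was 3.42 ± 0.31 in input (edgeR adjusted p = 1.84e-08) and 3.16 ± 0.33 in RPF (limma adjusted p = 2.24e-06). Its change in TE was -0.16 ± 0.46.

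PSME1 and PSME2 are alpha and beta subunits of the same activator ring and lie close together on chromosome 14. PSME1 (24136163 to 24138967, plus strand) had input levels of 647.5 and 578.4 in METTL5-WT, against 1119 and 1073 in METTL5-KO, and RPF levels of 536.9 and 553.5 against 1187 and 1181. PSME2 (24143362 to 24147570, minus strand) had input levels of 231.5 and 230.9 in METTL5-WT, against 436.4 and 518.6 in METTL5-KO, and RPF levels of 660.4 and 503.4 against 950.3 and 1082. For both genes every knockout library was above every wild-type library. The input log2 fold changes were 0.82 ± 0.12 for PSME1 (edgeR adjusted p = 1.75e-05) and 1.03 ± 0.14 for PSME2 (edgeR adjusted p = 6.56e-06), and those of RPF were 1.12 ± 0.11 (limma adjusted p = 1.31e-06) and 0.81 ± 0.15 (limma adjusted p = 0.000614). PSME2 has 6 annotated pseudogenes, so its counts from uniquely mapped reads are uncertain.

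PSMB10 (ENSG00000205220, chromosome 16 from 67934506 to 67936864, minus strand) had input levels of 12.9 and 21.3 in METTL5-WT, against 22.9 and 34.1 in METTL5-KO. Its RPF levels were 116 and 126 in METTL5-WT, against 179.7 and 188.4 in METTL5-KO. The genotypes did not overlap, but the input values were close together and rested on 19 to 68 counts. The log2 fold change was 0.73 ± 0.39 in input (edgeR adjusted p = 0.188) and 0.60 ± 0.32 in RPF (limma adjusted p = 0.181), which leaves room both for no change and for one as large as that of PSME2.

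**Figure D1:**
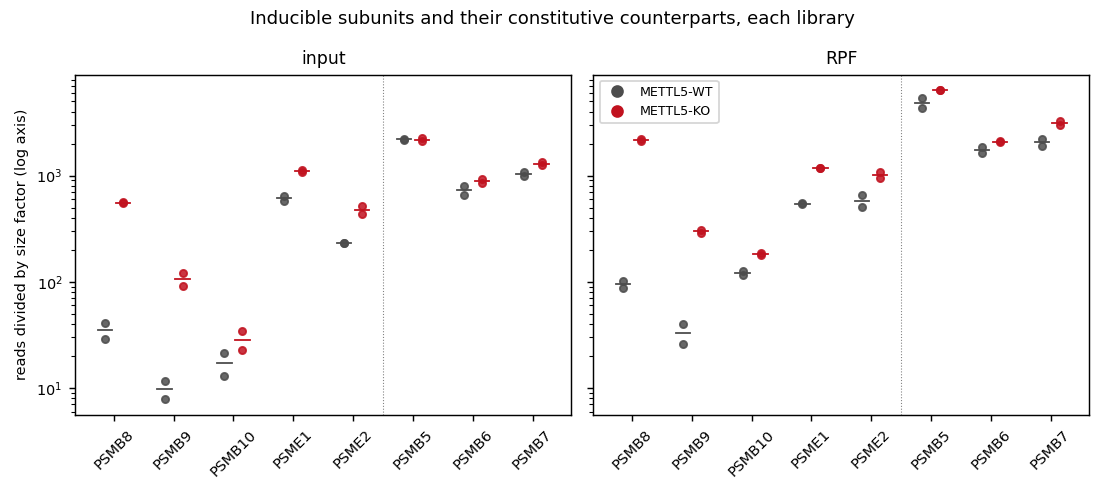
Levels (reads divided by size factor, log axis) of the 5 interferon-inducible subunits and, right of the dotted line, the 3 constitutive subunits that PSMB8, PSMB9 and PSMB10 replace; each point is a library, each bar the mean of 2 libraries, grey METTL5-WT and red METTL5-KO. PSMB8 rises from 87.9 and 102 to 2110 and 2194 in RPF, while the input levels of PSMB5 overlap between genotypes.

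None of the 3 constitutive counterparts was called in input by edgeR, with log2 changes of -0.03 for PSMB5, 0.26 for PSMB6 and 0.30 for PSMB7, of which PSMB6 and PSMB7 had an unadjusted p under 0.05. PSMB5, which carries the chymotrypsin-like activity, had input levels of 2202 and 2174 in METTL5-WT, against 2094 and 2240 in METTL5-KO, and RPF levels of 5374 and 4340 against 6392 and 6371. PSMB6, with the caspase-like activity, had input levels of 806.1 and 662.9 against 849.9 and 923.2, and RPF levels of 1846 and 1644 against 2050 and 2124. PSMB7, with the trypsin-like activity, had input levels of 1074 and 998.3 against 1244 and 1336, and RPF levels of 2233 and 1919 against 3020 and 3255. In RPF, PSMB5 and PSMB7 were called higher, against 14.1% of all genes tested. Their log2 changes were 0.40 ± 0.11 and 0.60 ± 0.11 (limma adjusted p = 0.00920 and 0.000493). PSMB6 was not called (0.26 ± 0.12, limma adjusted p = 0.1003).

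The balance between each replacement subunit and its counterpart was measured as a ratio of RPF levels per codon. PSMB8 made up 1.53% and 2.20% of the sum of PSMB8 and PSMB5 in METTL5-WT, against 23.9% and 24.7% in METTL5-KO, a ratio 17.2-fold higher. PSMB9 made up 2.33% and 1.70% of the sum of PSMB9 and PSMB6 in METTL5-WT, against 14.2% and 12.9% in METTL5-KO, a ratio 7.70-fold higher. PSMB10 made up 5.02% and 6.26% of the sum of PSMB10 and PSMB7 in METTL5-WT, against 5.69% and 5.55% in METTL5-KO, a ratio 1.00-fold that of METTL5-WT. In input the same ratios were 16.3-fold, 9.07-fold and 1.35-fold those of METTL5-WT. With 2 libraries against 2, the two-sided exact permutation test cannot go below p = 0.333, which the first 2 pairs reached in both library types; PSMB10 against PSMB7 gave an exact p of 0.667 in input and 1 in RPF. The footprint density of PSMB5 and PSMB6 remained above that of their replacements in all METTL5-KO libraries.

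**Figure D2:**
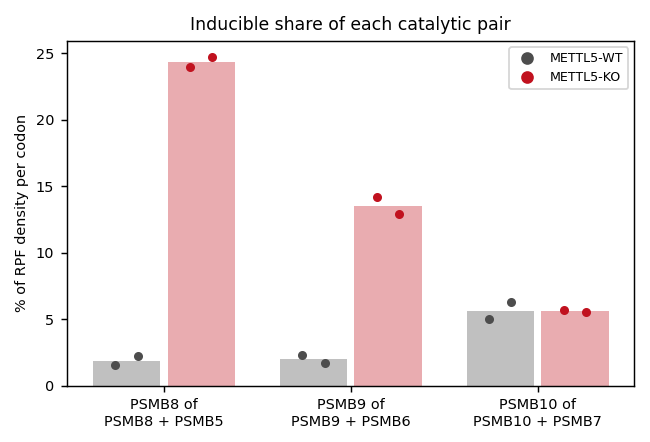
Share of each replacement subunit in the RPF density per codon of its catalytic pair, in percent; points are libraries, bars the mean of 2 libraries, grey METTL5-WT and red METTL5-KO. The share goes from about 2% to 23.9% and 24.7% for PSMB8 and to 14.2% and 12.9% for PSMB9, and the PSMB10 points of the genotypes overlap.

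Sequence near the transcription start is shown for the 3 inducible subunits that hold the core letters of the interferon-stimulated response element, GAAANNGAA. RefSeq promoters (GRCh38.p14, 250 bases before the start to 50 after it) were searched on both strands and were matched for 35 of the 40 members, all 5 inducible subunits among them. Capitals mark the motif.
PSME2, chr14:24146620-24146648, minus strand: cctggggagtGAAAGCGAAagcccgggcg
PSMB10, chr16:67936853-67936881, minus strand: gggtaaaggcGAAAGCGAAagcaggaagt
PSME1, chr14:24136190-24136218, plus strand: ccctaccgctTTCGCTTTCccttcgcggt
In PSME2 the motif lay 28 to 20 bases before the start, in PSMB10 21 to 13 bases before it, and in PSME1 it lay on the other strand, from base 7 to base 15 after the start. The letters were found in 6 of the 35 members (PSMA4, PSMB4 and PSMC2 besides these) and in 8.11% of all 35116 promoters. Each member was searched at 1 listed start, while the 35116 promoters can include several starts of a gene. The shares of members and of all promoters are therefore on unlike units. PSMB8 and PSMB9, which rose most, did not hold them in this window at the start searched. The letters TTCNNNGAA, core of the gamma-activated site, were in 0 of the 5 inducible promoters, in 3 of the 35 members (PSMC4, PSMD3, PSME3) and in 7.66% of all promoters. The site TGANTCAGC, bound by NFE2L1 and its relatives, was in 1 member, PSMD9, and in 1.36% of all promoters. A match of these letters is a description and not a binding site, and no match says only that they are not in this window.

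Over all 40 members, input levels of 7 were called higher in METTL5-KO, against 11.8% of the 14054 genes tested, and 3 were called lower, against 10.6%. The median log2 change was 0.10 over the members and -0.00 over all genes tested. Of the 7, 4 were the inducible subunits described above, and the others were PSMD13 (0.61 ± 0.12), a scaffold subunit of the cap lid, and the core subunits PSMB3 (0.40 ± 0.12) and PSMB2 (0.32 ± 0.11), with edgeR adjusted p of 0.000425, 0.0190 and 0.0454. None of the 5 cap ATPases was called in input by edgeR or DESeq2, and none had an unadjusted edgeR p under 0.05 (0 higher and 0 lower).

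The 3 called lower in input were PSMA7, an alpha subunit of the core, PSMD7, a lid subunit that pairs with the deubiquitinase PSMD14, and PSMD10, a cap assembly chaperone also known as gankyrin. PSMA7 (ENSG00000101182, chromosome 20 from 62136733 to 62143440) had input levels of 4339 and 4689 in METTL5-WT, against 2386 and 2640 in METTL5-KO. PSMD7 (ENSG00000103035, chromosome 16 from 74296814 to 74306288) had 1825 and 1766 against 1177 and 1216. PSMD10 had 610.0 and 726.2 against 541.3 and 465.4. The genotypes did not overlap for any of them. The log2 fold changes were -0.86 ± 0.12 (edgeR adjusted p = 7.30e-06), -0.60 ± 0.11 (edgeR adjusted p = 0.000424) and -0.42 ± 0.13 (edgeR adjusted p = 0.0192). Fewer cells with a transcript and less of it per cell cannot be told apart in such bulk libraries. The counts depended on single libraries: without METTL5-WT lysate 1 there were 4 higher and 1 lower, and without METTL5-KO lysate 1 there were 12 higher and 8 lower.

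Some of these input changes were shared with genes on the same stretch of chromosome. For each member the 20 tested genes on either side were taken, other members included. The 40 neighbours of PSMA7 had a median input log2 change of -0.68, and 4 of them were above 0. The 40 neighbours of PSMD7 had a median of -0.53, with 3 above 0. The 23 neighbours of PSMD13, near the end of chromosome 11, had a median of 0.71, with 22 above 0. These medians are close to the members' own changes of -0.86, -0.60 and 0.61. The other 3 constitutive or other members called in input differed from their neighbours: PSMD10 was at -0.42 with a neighbour median of -0.00 and 20 of 40 above 0, PSMB3 at 0.40 with 0.06, and PSMB2 at 0.32 with 0.02. PSMB10, also on chromosome 16, lay among neighbours with a median of -0.36. The neighbours of PSMB8 and PSMB9 had medians of 0.25 and 0.26, far under the changes of those genes, and those of PSME1 and PSME2 had 0.23 and 0.20. The part of a chromosomal region in these changes was not tested.

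**Figure D3:**
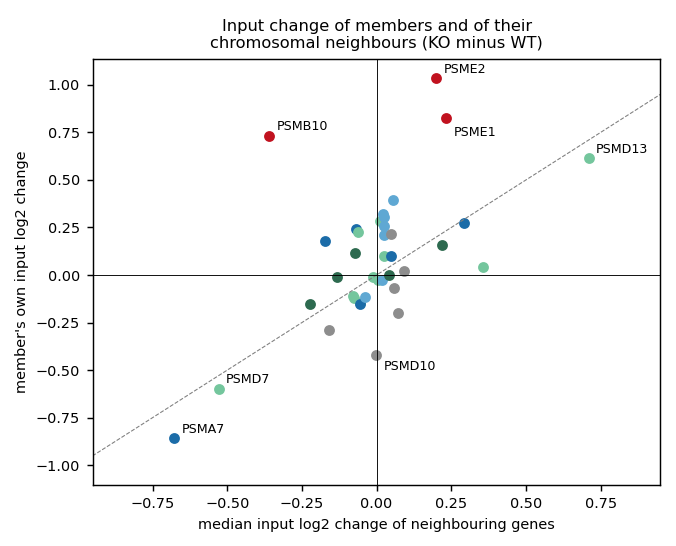
Input log2 fold change (METTL5-KO minus METTL5-WT) of each member against the median of its chromosomal neighbours, with the line of equal values dashed; colours are core alpha (dark blue), core beta (light blue), interferon-inducible (red), cap ATPase (dark green), other cap subunits (light green) and others (grey). PSMB8 and PSMB9, at 3.97 and 3.42, lie above the range drawn and are left out. PSMA7, PSMD7 and PSMD13 lie near the line, PSME1, PSME2 and PSMB10 lie well above it, and PSMD10 lies below it.

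In RPF the members moved mostly one way. In METTL5-KO 24 of the 40 were called higher, against 14.1% of the 11240 genes tested, and 2 were called lower, against 12.5%. The median log2 change was 0.42 over the members and 0.02 over all genes. The 39 subunits together took 1.01% and 1.04% of the RPF reads of the TE table in METTL5-WT, against 1.20% and 1.23% in METTL5-KO, while they took 0.729% and 0.728% of the input reads of that table in METTL5-WT, against 0.741% and 0.759% in METTL5-KO. Both shares were higher in each knockout library than in either wild-type library, by more in RPF than in input. The 39 include the 5 inducible subunits, whose median input log2 change was 1.03, against 0.10 over the 29 constitutive core and cap subunits. Shares without the inducible subunits were not computed, so a higher input share is not shown for the constitutive ones.

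Of the 13 constitutive core subunits, 10 were called higher and 1 lower, with a median log2 change of 0.60. Among the alpha subunits, which form the outer rings and gate the barrel, PSMA6 (1.05 ± 0.19), PSMA5 (1.05 ± 0.11), PSMA3 (0.65 ± 0.09), PSMA4 (0.61 ± 0.12) and PSMA1 (0.49 ± 0.13) were called higher, and PSMA7 fell by 0.45. Among the beta subunits, PSMB1 (0.70 ± 0.10), PSMB3 (0.66 ± 0.10), PSMB7, PSMB5 and PSMB4 (0.39 ± 0.09) were called higher. PSMB2 (0.25 ± 0.09, limma adjusted p = 0.0553) and PSMB6 were not. PSMA6 has 4 annotated pseudogenes, so its level is uncertain. Besides PSMA6 and PSME2, other members called in input, RPF or TE have annotated pseudogenes. PSMD10 has 3, and PSMB3 and PSMC2 have 2 each. PSMA1, PSMA3, PSMA5, PSMB7, PSMD7 and PSMD14 have 1 each. The same limit applies to their levels.

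Of the 16 cap subunits, 9 were called higher and 1 lower, with a median of 0.36. The ATPases PSMC2 (0.59 ± 0.11), PSMC5 (0.57 ± 0.11), PSMC3 (0.50 ± 0.10) and PSMC6 (0.35 ± 0.10) were called higher, and PSMC4 was at 0.12 ± 0.11. Among the other cap subunits, PSMD13 (0.56 ± 0.10), PSMD14 (0.52 ± 0.11), which removes ubiquitin from substrates, PSMD1 (0.50 ± 0.10), PSMD11 (0.43 ± 0.10) and PSMD6 (0.37 ± 0.10) were called higher. The ubiquitin receptor PSMD4 was at 0.00 ± 0.12, and PSMD2, PSMD3, PSMD8 and PSMD12 were between 0.13 and 0.23 and did not pass.

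The 2 called lower in RPF were again PSMD7 and PSMA7. PSMD7 had RPF levels of 3870 and 4633 in METTL5-WT, against 2514 and 2658 in METTL5-KO, a log2 change of -0.71 ± 0.10 (limma adjusted p = 9.06e-05). PSMA7 had 5141 and 5758 against 3667 and 4313, a log2 change of -0.45 ± 0.11 (limma adjusted p = 0.00478). The genotypes did not overlap for either gene. Without the variance trend in limma, and without METTL5-WT lysate 2 or METTL5-KO lysate 1, the call of PSMA7 was lost and that of PSMD7 held.

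Of the 6 other members, 1 was called higher in RPF: PSME4 (0.34 ± 0.10, limma adjusted p = 0.0229), a large single-chain activator. PSME3, an activator of nuclear proteasomes, was at 0.02 ± 0.10, the cap assembly chaperones PSMD5, PSMD9 and PSMD10 were at -0.12 ± 0.11, -0.25 ± 0.21 and 0.17 ± 0.14, and PSMC3IP was at 0.14 ± 0.26.

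**Figure D4:**
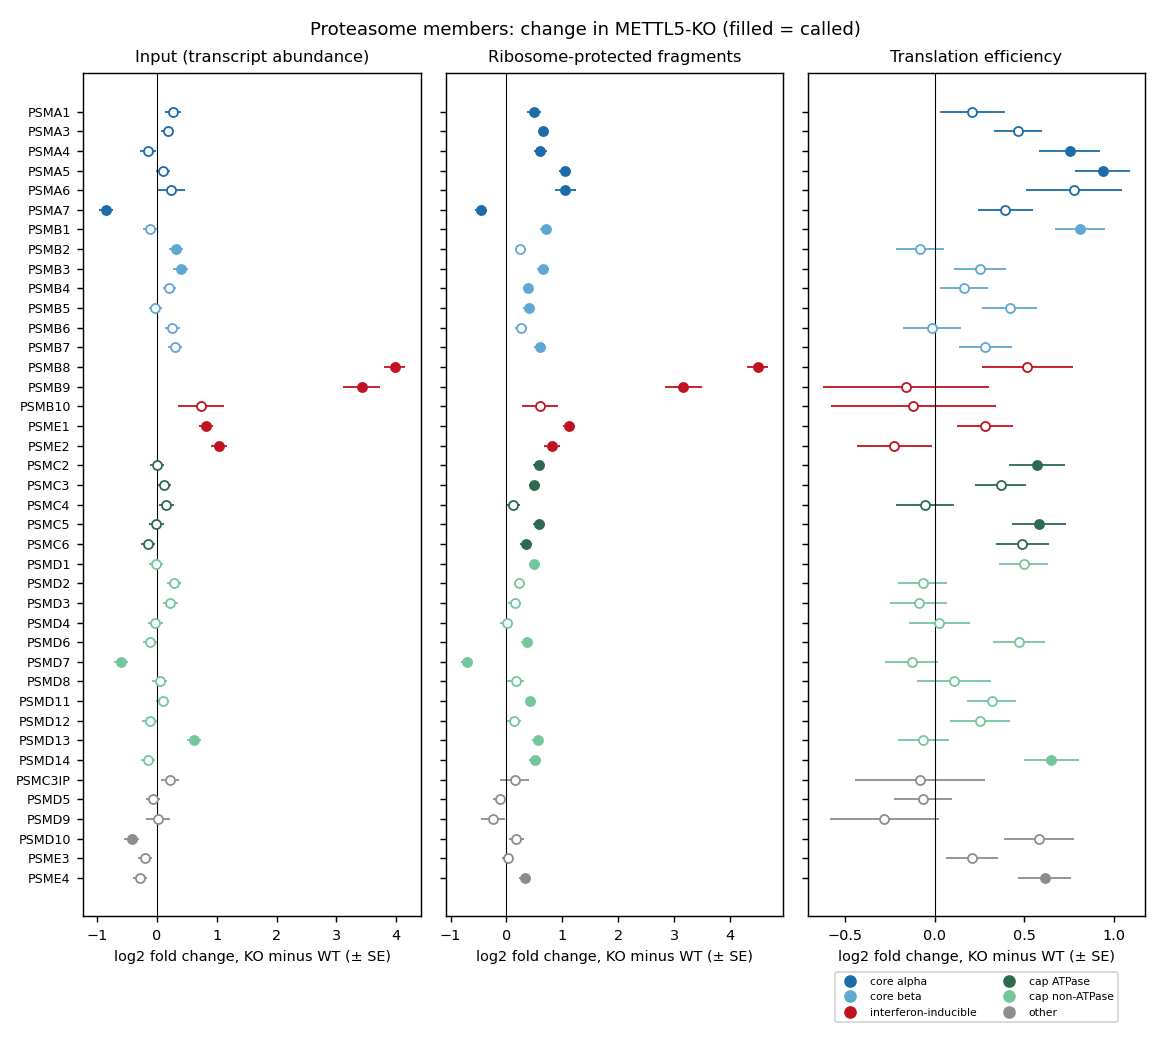
Log2 fold change (METTL5-KO minus METTL5-WT, with standard error) of all 40 members in input, RPF and TE, coloured by group; filled points were called and open points were not. The inducible subunits reach 3.97 in input and 4.49 in RPF, and most core and cap subunits sit to the right of 0 in RPF. The TE panel, on its own narrower axis, has 7 filled points.

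In TE, 7 of the 40 members were called higher in METTL5-KO, against 2.65% of the 11240 genes tested, and 0 were called lower, against 2.06%. At an unadjusted p under 0.05, limma gave 17 higher and 0 lower and edgeR 16 higher and 0 lower, and DESeq2 called 12 higher and 0 lower. The median log2 change was 0.27 over the members and 0.02 over all genes. The 7 were the core subunits PSMA5, PSMB1 and PSMA4, the cap subunits PSMD14, PSMC5 and PSMC2, and the activator PSME4. Of the 13 core subunits 3 were called, of the 16 cap subunits 3, of the 5 inducible subunits 0, with no unadjusted p under 0.05 by limma or edgeR and no call by DESeq2. The median TE change was 0.61 over the 6 alpha subunits, 0.25 over the 7 constitutive beta subunits, 0.49 over the 5 cap ATPases, 0.11 over the other 11 cap subunits and -0.12 over the 5 inducible subunits. Differences between these groups were not tested.

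PSMA5 had input levels of 1239 and 1169 in METTL5-WT, against 1349 and 1254 in METTL5-KO, and RPF levels of 3699 and 3484 against 6718 and 8187. Its log2 TE, the log2 ratio of RPF to input level, was 1.58 and 1.57 in METTL5-WT, against 2.32 and 2.71 in METTL5-KO. The TE change was 0.93 ± 0.15 (limma adjusted p = 0.00418, edgeR adjusted p = 0.000734). The RPF level was 2.07-fold that of METTL5-WT, and the input change of 0.10 ± 0.11 did not pass.

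PSMB1 had input levels of 1854 and 1974 in METTL5-WT, against 1717 and 1841 in METTL5-KO, both a little under the lower METTL5-WT value, and RPF levels of 4504 and 4073 against 6884 and 7081. Its log2 TE was 1.28 and 1.04 in METTL5-WT, against 2.00 and 1.94 in METTL5-KO, a change of 0.81 ± 0.14 (limma adjusted p = 0.00502, edgeR adjusted p = 0.00203).

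PSMA4 had input levels of 1520 and 1358 in METTL5-WT, against 1493 and 1127 in METTL5-KO, which overlap, and RPF levels of 2057 and 2030 against 3155 and 3066. Its log2 TE was 0.44 and 0.58 in METTL5-WT, against 1.08 and 1.44 in METTL5-KO, a change of 0.75 ± 0.17 (limma adjusted p = 0.0198, edgeR adjusted p = 0.00830).

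The other 4 calls were smaller. PSMD14 changed by 0.65 ± 0.15 on the log2 scale of TE, PSME4 by 0.61 ± 0.15, PSMC5 by 0.58 ± 0.15 and PSMC2 by 0.57 ± 0.16, with limma adjusted p of 0.0250, 0.0277, 0.0369 and 0.0455. For each of them both knockout libraries had a higher log2 TE than both wild-type libraries. Close to the threshold, PSMD1 passed in limma (adjusted p = 0.0482) but not in edgeR (adjusted p = 0.0519), and PSMA6 passed in edgeR (adjusted p = 0.0472) but not in limma (adjusted p = 0.0957).

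The TE calls rested on few libraries and on the scaling. Without METTL5-KO lysate 2, 0 members were called, and without METTL5-WT lysate 1, METTL5-WT lysate 2 or METTL5-KO lysate 1 there were 2, 3 and 4. Under quantile normalization 2 were called, PSMA5 and PSMB1, and the members' median TE change was 0.09. The TE changes of the members also went with base composition: across the 40 members, the GC content of the coding sequence and the TE change had Pearson's r of -0.56 and Spearman's rho of -0.54, as a description over genes that share libraries. The coding GC content of the 7 called members was 40.1% to 51.6%, with a median of 45.7%, against a median of 50.1% over the 40 members and 52.3% over all genes with an annotated coding sequence. With the trend on GC content removed in limma, 4 members (PSMA4, PSMA5, PSMB1, PSMC5) were called with edgeR as before, and the TE change of PSMA5 was 0.76 and that of PSMB1 0.68.

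Subunits that enter the same particle in equal numbers had unequal footprint densities. In METTL5-WT the RPF level per codon of the 13 constitutive core subunits ran from 2.14 for PSMA6 to 33.1 for PSMB2, with a median of 14.9, and in METTL5-KO from 4.44 to 39.4 for the same genes, with a median of 23.1. The 16 cap subunits ran from 1.85 for PSMD8 to 13.1 for PSMD7 in METTL5-WT, with a median of 6.04, and from 2.03 for PSMD8 to 13.3 for PSMD14 in METTL5-KO, with a median of 7.01. Among the inducible subunits, PSMB8 went from 0.318 and 0.371 per codon in METTL5-WT to 7.65 and 7.95 in METTL5-KO, which brought it among the cap and the lower core subunits, while PSMB9 reached 1.42 and 1.32 and PSMB10 0.658 and 0.690. The spread of the log2 density within the core (SD over 13 genes) was 1.03 in METTL5-WT, against 0.92 in METTL5-KO. Both this spread and the low end of the core range include PSMA6, whose 4 annotated pseudogenes make its level uncertain. Neighbours in this order such as PSMB4, at 18.3 and 17.4 per codon in METTL5-WT, and PSMB1, at 18.7 and 16.9, overlapped between libraries. The part of the transcript over which footprints were counted is not given in the sources used here, so densities per codon are approximate.

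**Figure D5:**
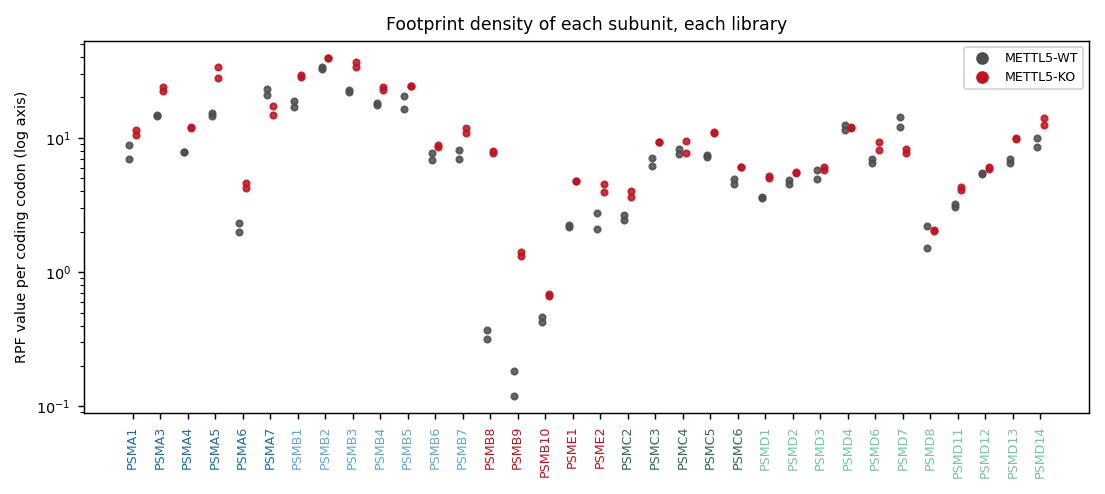
RPF level per coding codon (log axis) of the constitutive core, interferon-inducible and cap subunits; each point is a library, grey METTL5-WT and red METTL5-KO, with gene names coloured by group as in the plot of changes. Core subunits lie mostly above cap subunits, PSMA6 and PSMD8 are lowest of their groups, and PSMB8 moves from under 1 to about the level of the cap.

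The genes around the proteasome were followed in a list of 43, of which all were tested. In input 11 were called higher and 0 lower by edgeR, in RPF 18 higher and 3 lower, and in TE 2 higher and 0 lower. The shares over all genes tested were 11.8% higher and 10.6% lower for input, 14.1% higher and 12.5% lower for RPF, and 2.65% higher and 2.06% lower for TE. The 3 lower in RPF are under that share and the 2 higher in TE are near it, so neither is a result about the list. At an unadjusted p under 0.05, 4 were lower in input by edgeR, and 1 by limma and 2 by edgeR were lower in TE, while DESeq2 called 0 lower in either. The 2 TE calls were both partners of the cap: SEM1, a small lid subunit not named as the others, at 0.89 ± 0.16 (limma adjusted p = 0.00812), and UCHL5, a deubiquitinase, at 0.79 ± 0.21 (limma adjusted p = 0.0415). SEM1 was at -0.02 ± 0.12 in input and 0.88 ± 0.12 in RPF. The 3 called lower in RPF, named after their values were seen, were ADRM1 (-0.40 ± 0.10), the receptor that holds UCHL5, NFE2L1 (-0.47 ± 0.13), the transcription factor that raises proteasome genes when the proteasome is inhibited, and DDI2 (-0.41 ± 0.14), the protease that activates NFE2L1. None of the 5 core assembly chaperones was called in input, RPF or TE by these tests or by DESeq2, with median log2 changes of 0.05, 0.07 and 0.16. At an unadjusted p under 0.05 there was 1, higher in RPF by limma and by edgeR. POMP was at 0.30 ± 0.11 in RPF (limma adjusted p = 0.0571). With 5 genes, 0 called is not far from the shares above and is no result about the chaperones.

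Most of the list's input calls were interferon signalling and peptide-loading genes: 9 of 11 were called higher in input, 10 of 11 in RPF and 0 of 11 in TE. For TE, limma and edgeR each gave 1 higher and 1 lower at an unadjusted p under 0.05, and DESeq2 called 0. The 0 of 11 in TE is near the shares over all genes tested, 2.65% higher and 2.06% lower. IRF9, a transcription factor of the interferon pathway, changed by 2.53 ± 0.73 in input and 2.03 ± 0.42 in RPF. Its input change is uncertain, as it rests on 1 and 5 counts in METTL5-WT, against 27 and 18 in METTL5-KO. NLRC5, an activator of MHC class I genes, changed by 1.38 ± 0.16 and 0.62 ± 0.19. TAP1 and TAP2, the peptide transporter, changed by 2.51 ± 0.14 and 1.69 ± 0.18 in input and by 2.15 ± 0.14 and 1.29 ± 0.35 in RPF. The METTL5-WT RPF levels of TAP2 rest on 7 and 4 reads. B2M, the light chain of MHC class I, changed by 1.57 ± 0.12 in input and 1.78 ± 0.11 in RPF.

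The genes PSMA2 and PSMC1 complete the core and the ATPase ring but are not among the 11244 genes of the TE table. Their input counts were 52 and 48 in METTL5-WT, against 36 and 36 in METTL5-KO for PSMA2 (log2 change -0.82 ± 0.34, edgeR adjusted p = 0.0888), and 143 and 130 against 129 and 217 for PSMC1 (-0.03 ± 0.21). The tissue-restricted subunits PSMA8 and PSMB11 had 0 input counts in all 4 input libraries.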

How the data were processed

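Of the 8 libraries, the 4 input ones were trimmed (BBDuk) and mapped to hg38 (STAR 2.7.3a) by the authors, who deposited raw counts per gene from featureCounts over exons by strand (the submitters' processing notes name version 1.6.0, and the file header a later one). RPF reads were trimmed, kept at footprint lengths, freed of rRNA reads and handled on the RiboToolkit server. Signal values deposited for TE, named RPKM by the authors, proved to be whole reads divided by a size factor per library (100% of values whole within 0.01), so reads were recovered. The deposited log2 fold change, p-value and adjusted p-value per gene are the authors' own comparison and were not used.

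Input used the edgeR 4.0.16 quasi-likelihood test on counts, with TMM factors and filterByExpr (14054 genes). RPF and TE were tested in 1 model of the 8 libraries by limma 3.58.1 on log2(value + 1), with a variance trend, over 11240 genes whose mean reached 1 in both library types, and with edgeR on the recovered reads; a call needed both, at a Benjamini-Hochberg adjusted p under 0.05 over all genes, two-sided. This scale understates changes of low genes. Alternatives were DESeq2 1.42.0, other scalings, filters and pseudocounts, a GC trend removed by local regression (span 0.3), replicate blocks and each lysate left out. Models were tested on simulated data. Input and RPF of the same genotype and number share a lysate, per the labels' protocol. Their deviations correlated at -0.0156 in METTL5-WT and 0.0534 in METTL5-KO.

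Coding lengths and coding GC content came from GENCODE release 44 annotation on hg38, which covered 99.8% of the TE table. Neighbours were taken by the gene positions of the deposited count table. Gene symbols matched 99.5% of the count table. Values in every library were given for the inducible subunits, their counterparts and the 3 largest called rises and falls in each fit. The members and lists were chosen with earlier results of these data known.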

Additional observations from a re-analysis of the deposited data

Results flagged for a closer look

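PSMB8-AS1, annotated on chromosome 6 from 32844078 to 32846500 on the plus strand, is not in the TE table and so entered no comparison of the report. It had 3 and 2 input counts in METTL5-WT, against 33 and 46 in METTL5-KO (log2 fold change 3.56 ± 0.62, edgeR adjusted p = 0.000186). It overlaps the start of PSMB8 on the opposite strand and the start of PSMB9 on the same strand. Input reads were counted by strand, but reads of PSMB8-AS1 and PSMB9 cannot be told apart by strand alone, and the part of PSMB9 transcripts in these counts was not tested.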

How the results depend on the processing

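Beside the 7 members called higher in TE, DESeq2 alone called 12, limma without a variance trend 0, quantile normalization 2 and, chosen after seeing the data, the GC trend removed in limma with edgeR as before 4. Limma without a variance trend called 1 member lower in RPF where 2 had been, and 19 higher where 24 had been. Quantile normalization called 18 higher in RPF. The RPF calls of PSMC6, PSME4, PSMB5, PSMD6 and PSMA1 were lost under both settings, and that of PSMB4 under quantile normalization. Those of PSMC6 and PSME4 were also lost with the GC trend removed. Leaving out 1 lysate, whose remaining partner is then assumed to vary like the other groups, gave 0 to 4 members higher in TE, 17 to 21 higher and 1 to 2 lower in RPF, and 4 to 12 higher and 1 to 8 lower in input. It also gave log2 changes of the PSMB10 to PSMB7 ratio in RPF from -0.17 to 0.17, around a value near 0. With the replicate number as a block, input and RPF gave the same counts as without it. With the lysate as a replicate block, 8 members were called higher in TE by limma and edgeR together. With the GC trend removed as well, limma alone called 6, a looser rule, so the 2 counts are not directly comparable. The replicate number alone as a block pairs nothing known between genotypes (correlations of 0.0386 in input and -0.00212 in RPF). The shallower METTL5-WT RPF libraries limit PSMB9 and PSMB10. The cause of these differences was not tested.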
